A study of Mus musculus with 10 samples.

Results

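Spermatocytes caught after Piwil1 had come up and before the Ccna1 program had started were taken from 2 single-cell RNA libraries of whole mouse testis, both carrying a germline deletion of Smarca5. Cells were chosen by their measured counts of a few stage genes. A barcode first had to reach 1000 unique molecular identifiers (UMIs, 1 for each captured RNA molecule) and 500 genes, with mitochondrial RNA making up no more than 10%. It then had to hold 2 or more Piwil1 UMIs, no more than 1 UMI over Ccna1, Pxt1 and Aurka together and no more than 1 of Acrv1, an acrosome gene, and to draw under 1% of its UMIs from the sperm chromatin genes Prm1, Prm2, Tnp1 and Tnp2. These rules kept 597 of 8098 cells (7.37%) in replicate 1 and 1007 of 14262 (7.06%) in replicate 2, or 1604 of 22360 in all. The gate is called early pachytene below, as a short name for cells before the Ccna1 rise. The rule does not separate early from later pachytene cells.

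Both single-cell samples had the genotype Smarca5 fl/delta; Ddx4-Cre+, in which Cre under the germ-cell gene Ddx4 removes the remaining floxed allele in germ cells while somatic cells keep it. No wild-type single-cell library was analysed here, so every RNA comparison is between stages of the same mutant testes. The series also held 8 ATAC-seq libraries, which map open chromatin, from cells sorted for cKIT or for a 4C DNA content by Hoechst dye; for each sort, 2 libraries were wild type C57BL6 and 2 had the Smarca5 genotype above. Age, the deleted exon and whether the replicates were separate animals are not given in the sources used here, so p-values measure the spread between these samples, which may be technical.

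Pachytene is the long stage of meiotic prophase in which homologous chromosomes are fully joined by the synaptonemal complex, crossovers mature, and the X and Y chromosomes are silenced in a compartment called the sex body. It is also when Piwil1 (MIWI), a PIWI-clade Argonaute protein, and the pachytene piRNAs appear, and when spermatocytes begin to store messages for spermatid and sperm parts. Ccna1, encoding the meiotic cyclin A1, Aurka, a division kinase, and Pxt1 come up later, as cells near the end of prophase. SMARCA5 is the ATPase of ISWI chromatin remodelers, which space and slide nucleosomes.

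The rule itself set the levels of its genes, which are given as a description. Piwil1 had a median of 4 UMIs per cell in replicate 1 and 3 in replicate 2, and made up 668 and 715 CPM (the gene's UMIs scaled to a total of 1000000, over the sum of all cells of the gate). Ccna1 stood at 4.21 and 5.89 CPM. Cells just outside the Piwil1 threshold, with 1 UMI, numbered 372 and 936 and drew 0.865% and 1.02% of their UMIs from X-linked genes. The 162 and 394 cells just inside, with 2, drew 0.318% and 0.380%. Those outside were shallower, with medians of 2441 and 2740.5 UMIs against 4289 and 3495.5. They also held more of the Leydig gene Insl3, 644 and 2772 CPM against 237 and 580. The part of other cell types in their X-linked shares was not tested. At the other edge, 280 and 362 cells inside had 1 UMI over Ccna1, Pxt1 and Aurka, and 246 and 171 cells outside had 2; Ldhc, a sperm-specific lactate dehydrogenase, was at 5532 and 4167 CPM inside and 6290 and 6916 outside.

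The gate was deeper than the stage before it. Median UMIs per cell were 7038 and 4237 in early pachytene, 1855 and 2091 in a leptotene/zygotene gate (at least 2 UMIs over Prdm9, Meiob, Dmc1 and Gm960, at most 1 of Piwil1, 270 and 683 cells) and 9116.5 and 12294 in a Ccna1-high gate (at least 3 UMIs over Ccna1, Pxt1 and Aurka, 1430 and 2360 cells). Because the gates were cut from the same libraries by other genes' counts, a p-value between them says how repeatable a difference was over 2 samples. Of the kept barcodes, 32 occurred in both libraries, and 0 of those were in the gate in both.

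One feature set the replicates apart before any comparison. In replicate 1, 50 cells of the gate (8.38%) drew under 3% of their UMIs from ribosomal protein genes, and in replicate 2 it was 669 cells (66.4%). These cells had 3772 and 4855 CPM of Malat1, a nuclear noncoding RNA, and a median of 18.2% and 14.3% of UMIs from genes longer than 200 kb, against 4.26% and 2.86% in the other cells of the gate. Their Ldhc was 1080 and 953 CPM against 5085 and 5120. Their median depth was lower, 3549.5 and 3460 UMIs against 7388 and 7088. Piwil1 was at 702 and 913 CPM against 667 and 524. The rule's floor of 2 Piwil1 UMIs is a larger share of a shallower cell, so these Piwil1 levels are not a comparison of expression. In the leptotene/zygotene gate the same share was 9.63% and 13.8%, and in the Ccna1-high gate 0.280% and 1.14%. The doublet caller Scrublet marked 36 and 74 cells of the gate, of which 35 and 66 were among those with at least 3% ribosomal protein UMIs. The median mitochondrial share was also higher in the cells under 3% ribosomal protein UMIs, 5.33% and 4.69% against 2.59% and 1.51%. The counts below are therefore also given for the 512 and 272 cells with at least 3% ribosomal protein UMIs and no doublet call, called the ribosomal-rich cells. What set the other cells apart was not tested.

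**Figure D1:**
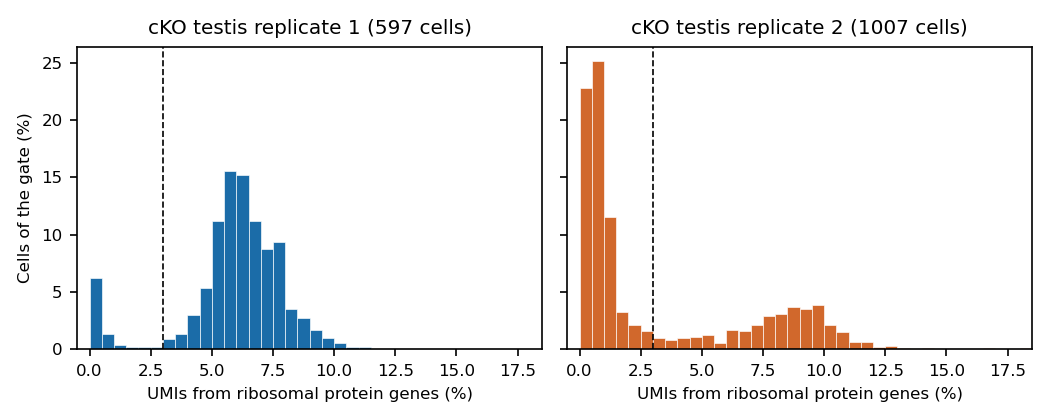
Share of UMIs from ribosomal protein genes (x axis, percent, bins of 0.5) against the percent of early pachytene cells (y axis) in each cKO replicate, with the dashed line at 3%. Replicate 1 holds 8.38% of its cells left of the line and replicate 2 holds 66.4%.

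Droplets also carried free RNA. Macrophage-like cells held at least 3 UMIs over C1qa, C1qb and C1qc. Sertoli-like cells held at least 3 over Cst9, Cst12 and Rhox8. At least 2 Piwil1 UMIs were found in 9.27% and 10.7% of macrophage-like cells and in 21.7% and 14.8% of Sertoli-like cells. Their median depths were 1853 and 3189 and 4210.5 and 4580 UMIs, and their pooled Piwil1 level was 63.1 to 179 CPM. With at least 10 UMIs required instead of 3, the shares were 4.40% and 8.17% and 14.9% and 11.4%. Called doublets were left in these groups, and their part was not tested. In the barcodes of replicate 1 with only 10 to 100 UMIs, Piwil1 was at 293 CPM, against 668 CPM in early pachytene of that replicate. Ldhc reached 6243 CPM in those barcodes, more than in early pachytene itself. The part of free RNA in the choice of cells by Piwil1 and in the Ldhc levels below was not tested. Summed over 10 Leydig markers the gate held 472 and 2117 CPM, over 15 Sertoli markers 362 and 999, and over 11 macrophage markers 40.7 and 122, with 0, 0 and 1 (Cd68, replicate 1) of them at 0. In the leptotene/zygotene gate the Leydig and Sertoli sums were higher, 1300 and 3918 CPM and 1030 and 2424 CPM. Endothelial markers summed to 7.02 and 7.23 CPM over 7 genes, with Tie1 at 0 in both. Erythroid markers summed to 1.64 and 222 CPM over 5 genes, of which 4 were called higher than in leptotene/zygotene, and in the ribosomal-rich cells they summed to 1.58 and 1.41 CPM with 0 of 3 called. The part of these transcripts in the other results was not tested.

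Smarca5 itself was at 318 and 300 CPM in leptotene/zygotene, 97.4 and 112 CPM in early pachytene and 41.0 and 22.6 CPM in the Ccna1-high gate. The counts are per gene and the floxed exon is not given, so these levels do not check the deletion. Between the first pair of stages the message fell by 1.24 on the log2 scale (SE 0.32, adjusted p = 0.0011, edgeR), and the same direction held in both samples. CPM is scaled to the gate's total UMIs, while log2 changes come from a fit with TMM normalization, which rescales those totals. A log2 change can therefore differ in size from its CPM values and, where the change is small, in direction.

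Of 18127 genes tested, 3161 (17.4%) were higher in early pachytene than in leptotene/zygotene and 2447 (13.5%) were lower at an adjusted p under 0.05 in edgeR's quasi-likelihood test. In the ribosomal-rich cells the counts were 3805 (23.5%) and 3101 (19.2%) of 16174. The rule used none of the genes tested, since all 18 gate genes were left out. As a description of the label, 19 of 23 tested pachytene markers were higher and 0 lower, with a median log2 change of 1.54 against 0.01 over all genes. Of 17 leptotene or zygotene markers, 0 were higher and 11 lower, median -1.13. Of the same lists, 19 and 0 were higher and 1 and 11 lower in the ribosomal-rich cells. Of 21 diplotene and division markers, 4 were higher and 4 lower, and 9 and 5 in the ribosomal-rich cells. The lists were chosen with earlier results of these data known, so they are no independent check of the label. Thinning every cell to 2000 UMIs equalized the depth per cell but not the gates, which were drawn again on the thinned counts and held 414 and 536 early pachytene and 79 and 258 leptotene/zygotene cells. With these, 1483 genes were called higher and 1389 lower.

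Among genes with at least 100 CPM in early pachytene in both samples, the 12 that rose most had varied functions. Prok2, encoding a secreted signaling peptide, was at 49.2 and 29.2 CPM in leptotene/zygotene and 399 and 244 CPM in early pachytene, and rose by a log2 change of 3.38 (SE 0.38, adjusted p = 7.5e-13, edgeR, as for every adjusted p below). Cyp19a1, the aromatase that makes estrogens, went from 107 and 103 CPM to 617 and 765. Mgll, a monoglyceride lipase, went from 53.4 and 49.1 CPM to 254 and 367, or 248 and 160 in the ribosomal-rich cells. In each case both early pachytene values lay above both earlier ones, though the choice of these genes already required a rise in each sample. Cyp19a1 was then lower again at 240 and 88.3 CPM in the Ccna1-high gate (log2 -1.73, SE 0.35, adjusted p = 2.2e-05), and Prok2 was at 356 and 254 CPM. Within the gate, Cyp19a1 stood at 1458 and 1239 CPM in the cells under 3% ribosomal protein UMIs and 587 and 280 CPM in the ribosomal-rich cells. The other genes of this group were Cdc42ep3, Rbakdn, Lef1 (a transcription factor of Wnt signaling), Abcc12, Pifo, Tmbim7, Tdrd6, Vit and Tmem30c, with log2 changes down to 2.69, and all 12 were also called in the ribosomal-rich cells.

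Among the 12 genes that fell most of those with at least 100 CPM in leptotene/zygotene in both samples, 9 were X-linked. Taf7l, an X-linked TFIID subunit of germ cells, was at 394 and 241 CPM in leptotene/zygotene and 7.49 and 6.46 CPM in early pachytene, a log2 change of -5.14 (SE 0.38, adjusted p = 2e-22). The other X-linked genes were Nxf2, Ccnb3, Bclaf3, Tsc22d3, Tex11, Usp26, Scml2 and Huwe1, and the autosomal ones were Sdk1, Pdlim5 and Tex15. Tex15, needed for recombination and transposon silencing, was at 684 and 381 CPM and then 12.2 and 18.6 CPM, a log2 change of -4.70 (SE 0.38, adjusted p = 2.6e-20). The plot of levels by gate shows these patterns for 12 genes.

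**Figure D2:**
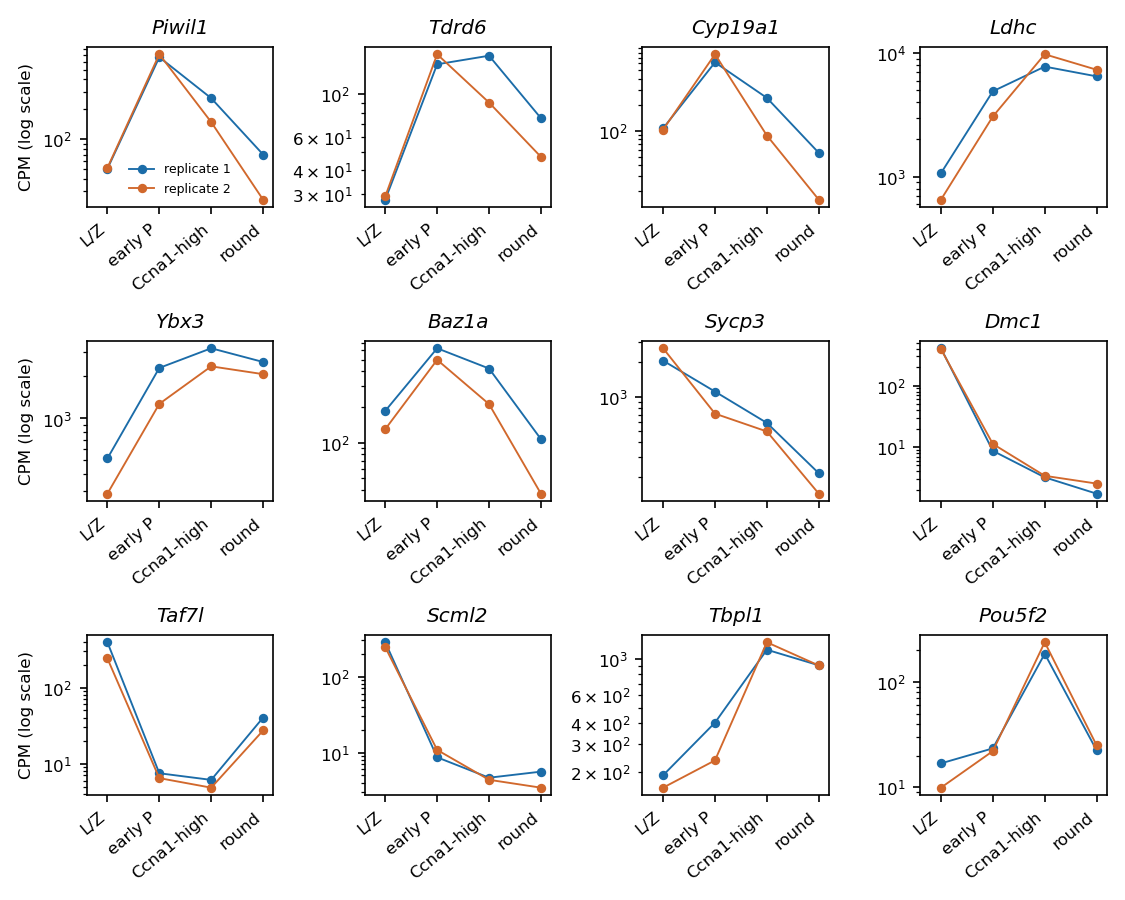
CPM on a log axis for 12 genes in 4 stage gates (leptotene/zygotene, early pachytene, Ccna1-high and round spermatid), with 1 line per cKO replicate. Piwil1, which chose the cells, Cyp19a1 and Baz1a are highest in early pachytene in both replicates, Taf7l, Scml2 and Dmc1, which helped choose the leptotene/zygotene cells, are highest there, and Tbpl1 and Pou5f2 are highest in the Ccna1-high gate.

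The piRNA pathway cuts and loads small RNAs that guide PIWI proteins. Of 26 tested members, with Piwil1 and the gate gene Ddx4 set aside, 12 were higher in early pachytene and 2 lower, with a median log2 change of 0.90 against 0.01 over all genes. In the ribosomal-rich cells it was 16 higher and 3 lower of 25. Over all genes 17.4% were higher and 13.5% lower, and 23.5% and 19.2% in the ribosomal-rich cells. Tdrd1, a Tudor scaffold that docks PIWI proteins, was at 82.9 and 77.8 CPM in leptotene/zygotene and 249 and 282 CPM in early pachytene (log2 change 2.05, SE 0.33, adjusted p = 2.8e-07). Pld6, the mitochondrial nuclease that starts piRNA cutting, went from 14.1 and 25.6 CPM to 115 and 80.1 CPM (log2 2.53, SE 0.37, adjusted p = 1.2e-08). Henmt1, which methylates piRNA ends, went from 12.6 and 7.31 CPM to 41.0 and 44.5 CPM (log2 2.52, SE 0.40). For these 3 genes both leptotene/zygotene values lay under both early pachytene values. Tdrd5, Tdrd6, Tdrd7, Tdrd9, Tdrd12, Mael, Pnldc1, Ddx25 and Exd1 were also called higher.

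Other piRNA genes were already on before the gate. Mov10l1, the helicase that feeds precursors into the pathway, was at 443 and 484 CPM in leptotene/zygotene and 245 and 355 CPM in early pachytene, a log2 change of -0.32 that did not pass the test (adjusted p = 0.49) and was -0.60 in the ribosomal-rich cells (adjusted p = 0.018). Piwil2 stood at 238 and 241 CPM and then 257 and 340 CPM, which did not pass (log2 0.64, adjusted p = 0.12), but it was called higher in the ribosomal-rich cells (log2 0.58, adjusted p = 0.025). Mybl1, encoding A-MYB, the transcription factor known to drive pachytene piRNA genes and Piwil1, was at 134 and 107 CPM and then 137 and 120 CPM (log2 0.44, adjusted p = 0.3). From early pachytene to the Ccna1-high gate, 13 of the 26 were lower and 4 higher, with a median log2 change of -0.67 against -0.04 over all genes, and 14 and 6 of 25 in the ribosomal-rich cells. Over all genes 21.0% were lower and 23.0% higher in that comparison, and 21.5% and 27.4% in the ribosomal-rich cells. Tdrd1 fell there to 108 and 64.9 CPM (log2 -1.14, SE 0.31, adjusted p = 0.0016), and Mael, a piRNA factor of germ granules, rose from 775 and 373 CPM to 936 and 688 CPM (log2 1.05, SE 0.39, adjusted p = 0.02). The Mael calls did not hold without the replicate block (log2 1.12 on entry and 0.96 on leaving).

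Promoters of 3 genes that are high in the gate are shown to place 1 form of the core letters bound by MYB-family factors, CAACTG or its reverse complement CAGTTG, in capitals. They are RefSeq sequences of build GRCm38.p6, 250 bases before to 50 after the gene start, on the strand of the gene: chr5:128735996-128736295 on the + strand for Piwil1, chr2:180642642-180642941 on the - strand for Tcfl5, which encodes a pachytene transcription factor, and chr10:84837898-84838197 on the + strand for 1 of 2 promoters listed for Rfx4, which encodes a transcription factor of the RFX family.
Piwil1: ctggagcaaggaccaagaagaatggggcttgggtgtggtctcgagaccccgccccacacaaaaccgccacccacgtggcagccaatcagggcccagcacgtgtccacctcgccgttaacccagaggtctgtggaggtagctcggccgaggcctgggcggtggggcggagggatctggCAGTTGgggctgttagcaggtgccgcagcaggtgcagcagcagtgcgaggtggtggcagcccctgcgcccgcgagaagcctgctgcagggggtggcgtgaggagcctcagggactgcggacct
Tcfl5: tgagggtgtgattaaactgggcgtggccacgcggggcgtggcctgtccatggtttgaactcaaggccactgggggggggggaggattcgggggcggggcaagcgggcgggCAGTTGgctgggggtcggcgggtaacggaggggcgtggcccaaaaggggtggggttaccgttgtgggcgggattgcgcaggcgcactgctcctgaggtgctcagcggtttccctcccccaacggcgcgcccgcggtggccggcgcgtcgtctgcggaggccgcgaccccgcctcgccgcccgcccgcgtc
Rfx4: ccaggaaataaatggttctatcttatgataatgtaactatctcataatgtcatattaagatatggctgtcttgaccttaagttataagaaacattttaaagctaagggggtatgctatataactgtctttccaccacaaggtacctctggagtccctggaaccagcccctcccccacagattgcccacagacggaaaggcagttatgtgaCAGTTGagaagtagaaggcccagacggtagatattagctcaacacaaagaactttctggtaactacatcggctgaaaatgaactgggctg
The match starts at base -73 from the gene start in Piwil1, -140 in Tcfl5 and -40 in Rfx4. Searched on both strands, these letters were in the window of 410 of 2289 genes called higher that have a start in the table (17.9%), of 234 of 1936 called lower (12.1%), and of 1882 of 13287 tested (14.2%). Among the genes called higher in the ribosomal-rich cells it was 16.5%. X-linked genes, of which 0 were called higher, held it in 107 of 511 (20.9%). A match is a description of letters and was not tested as a binding site.

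The counts for meiotic chromosome genes are to be read against the 17.4% higher and 13.5% lower over all genes (23.5% and 19.2% in the ribosomal-rich cells). Of 16 tested synaptonemal complex genes, 1 was higher and 5 lower than in leptotene/zygotene (median log2 change -0.64), and in the ribosomal-rich cells 2 and 6. Sycp3, a lateral element protein, went from 2069 and 2653 CPM to 1111 and 714 CPM (log2 -1.04, SE 0.40, adjusted p = 0.036), a call that was lost without the replicate block (-1.02) but held in the ribosomal-rich cells. Sycp1, the transverse filament, was at 2375 and 2073 CPM and then 1618 and 820 CPM, which did not pass (adjusted p = 0.21). Of 21 genes for cohesin, which rings sister chromatids, and CTCF, 0 were higher and 9 lower (median -0.57), and 0 and 12 in the ribosomal-rich cells. Smc3, a core ring subunit, dropped from 403 and 284 CPM to 33.3 and 26.2 CPM (log2 -3.18, SE 0.35, adjusted p = 1.7e-13), and the meiotic subunit Rad21l from 43.6 and 23.0 CPM to 0.468 and 1.52 CPM (log2 -4.57, SE 0.55, adjusted p = 2e-11). Stag3, also meiotic, was at 208 and 173 CPM and then 162 and 158 CPM (adjusted p = 0.87).

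Of 24 genes for break formation and strand exchange, 3 were higher and 8 lower, and 4 and 8 in the ribosomal-rich cells. The shares over all genes were again 17.4% and 13.5%, and 23.5% and 19.2% in the ribosomal-rich cells. Spo11, whose protein makes the breaks, was among the 3, at 90.0 and 97.6 CPM and then 158 and 149 CPM (log2 1.01, SE 0.33, adjusted p = 0.011), though with thinned cells it did not pass (log2 0.58). Of 24 crossover genes, 3 were higher and 7 lower (median -0.41), and 5 and 10 in the ribosomal-rich cells. The higher ones included Mlh3, a subunit of the crossover-resolving endonuclease, at 73.1 and 64.7 CPM and then 116 and 148 CPM (log2 1.26, SE 0.32, adjusted p = 0.0011). Msh5, which stabilizes crossover intermediates, was lower at 19.0 and 28.1 CPM after 82.9 and 63.2 CPM (log2 -1.29, SE 0.33, adjusted p = 0.0011). From early pachytene to the Ccna1-high gate, 14 crossover genes were lower and 2 higher (median -1.04), against 21.0% lower and 23.0% higher over all genes. In the ribosomal-rich cells it was 14 and 3, against 21.5% and 27.4%. Replication and histone genes, 30 tested, had 2 higher and 14 lower in early pachytene, and 6 and 15 in the ribosomal-rich cells. The somatic linker histone Hist1h1a went from 94.2 and 116 CPM to 3.28 and 7.99 CPM, and the testis linker histone Hist1h1t from 22.5 and 43.9 CPM to 113 and 109 CPM (log2 2.13, SE 0.36, adjusted p = 5.1e-07).

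X-linked transcripts were scarce in the gate. Genes on the X drew 1.60% and 1.63% of UMIs in leptotene/zygotene, 0.167% and 0.287% in early pachytene, 0.143% and 0.156% in the Ccna1-high gate and 0.979% and 1.06% in round spermatids. The early pachytene share was 9.57 and 5.70 times lower than the stage before in the 2 replicates. With called doublets removed the shares were 0.135% and 0.174%, and replicate 2 was 9.20 times lower. The difference was -1.391 percentage points (0.227% ± 0.0843 against 1.62% ± 0.0210, SD, n = 2 each), with an exact two-sided permutation p of 0.333, the smallest that 2 against 2 allows. In the ribosomal-rich cells the shares were 0.132% and 0.252%, so replicate 2 remained the higher.

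**Figure D3:**
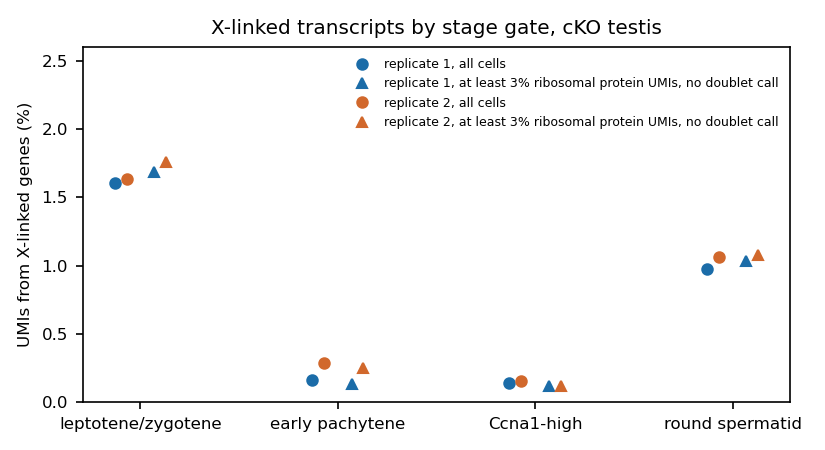
Percent of UMIs from X-linked genes (y axis) in 4 stage gates (x axis), for each cKO replicate, with circles for all cells and triangles for ribosomal-rich cells without a doublet call. All early pachytene and Ccna1-high points lie under 0.3% and all leptotene/zygotene points above 1.5%.

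Gene by gene, 394 of 619 tested X-linked genes (63.7%) were lower in early pachytene and 0 (0.0%) higher, with a median log2 change of -2.37. On the autosomes 12.4% were lower and 18.0% higher. In the ribosomal-rich cells 381 of 553 X-linked genes (68.9%) were lower, against 18.2% on the autosomes. Of 32 Y-linked genes, 8 (25.0%) were lower, among them Zfy1, a zinc finger gene, at 45.0 and 84.6 CPM and then 2.58 and 4.37 CPM. The gene lists kept their sex-linked members, such as Nxf2, Taf7l, Tex11 and Zfy1. The part of these members in the counts of lower genes was not tested. The most abundant X-linked messages left in the ribosomal-rich cells were Tmsb4x, encoding an actin-binding peptide, at 75.2 and 251 CPM, and Ndufa1, a respiratory chain subunit, at 94.1 and 140 CPM. In the Ccna1-high gate 73 X-linked genes (11.8%) were above and 47 (7.59%) below their early pachytene level, against 23.0% and 21.0% over all genes. The balance turned in the ribosomal-rich cells, with 71 (12.8%) above and 92 (16.6%) below of 553, against 27.4% and 21.5% over all genes. Those above included Tsga8, a haploid-cell gene, at 86.3 and 132 CPM after 29.3 and 40.5 CPM. Of 36 tested genes that act in the sex body and its silencing, 3 were higher (Ago4, H2afy and Znrf2) and 5 lower in early pachytene, and 5 and 6 of 34 in the ribosomal-rich cells, near or under the shares over all genes in each. In the Ccna1-high gate 16 were lower and 1 higher, and 21 and 1 in the ribosomal-rich cells, against 21.0% and 21.5% lower over all genes.

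Autosomal retrogenes are processed copies, here of X-linked housekeeping genes. Of 18 retrogenes tested, 10 were higher in early pachytene and 0 lower (median log2 change 1.14), against 17.4% and 13.5% over all genes. Of their 18 X-linked parents 0 were higher and 15 lower (median -2.69). In the ribosomal-rich cells it was 14 and 2 for the retrogenes and 0 and 16 for the parents, against 23.5% and 19.2% over all genes. The 2 lower retrogenes were Utp14b and Ubl4b, whose parents were lower too. Prps1l1, a copy of a nucleotide-synthesis enzyme gene, went from 64.7 and 32.9 CPM to 281 and 187 CPM (log2 2.67, SE 0.41, adjusted p = 6e-08), while its parent Prps1 went from 26.7 and 29.2 CPM to 2.58 and 2.47 CPM (log2 -3.14, SE 0.45, adjusted p = 7.1e-09). Pgk2, the glycolytic copy known from spermatids, was at 36.5 and 28.2 CPM and then 41.9 and 26.2 CPM. The change did not pass (log2 0.41 after TMM normalization, adjusted p = 0.45), and its CPM fell in replicate 2. It was then at 214 and 198 CPM in the Ccna1-high gate (log2 3.14, SE 0.37, adjusted p = 4.3e-12). Its parent Pgk1 had fallen from 11.2 and 25.1 CPM to 4.92 and 5.71 CPM (log2 -1.53, adjusted p = 0.0026), a call that did not hold with thinned cells (log2 -1.07). Reads of such near-identical copies can be assigned to the wrong member, so these values carry that uncertainty.

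Of 60 tested axoneme and cilium genes, which build the sperm tail, 46 were higher and 1 lower in early pachytene, with a median log2 change of 1.85. In the ribosomal-rich cells it was 49 and 3. The shares over all genes were 17.4% and 13.5%, and 23.5% and 19.2% in the ribosomal-rich cells. Dnah8, a tail dynein heavy chain, went from 396 and 453 CPM to 1337 and 2035 CPM (log2 2.30, SE 0.40, adjusted p = 1.4e-06), and was at 1259 and 728 CPM in the ribosomal-rich cells. Rsph1, a radial spoke protein, went from 956 and 970 CPM to 3295 and 2486 CPM (log2 1.94, SE 0.47, adjusted p = 0.00052). Meig1, needed for the manchette, went from 1566 and 876 CPM to 4825 and 2475 CPM (log2 1.93, SE 0.52, adjusted p = 0.0018). Both early pachytene libraries were above both earlier ones for these 3 genes. Spag16, of the central pair, stood at 4956 and 4308 CPM in the cells under 3% ribosomal protein UMIs and at 1235 and 682 CPM in the ribosomal-rich cells, after 593 and 555 CPM in leptotene/zygotene. Of 27 acrosome genes 8 were higher and 4 lower, against 17.4% and 13.5% over all genes. In the ribosomal-rich cells it was 8 and 6, against 23.5% and 19.2%. In the Ccna1-high gate 15 of the 27 rose and 0 fell, against 23.0% and 21.0% over all genes. In the ribosomal-rich cells it was 18 and 0, against 27.4% and 21.5%.

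**Figure D4:**
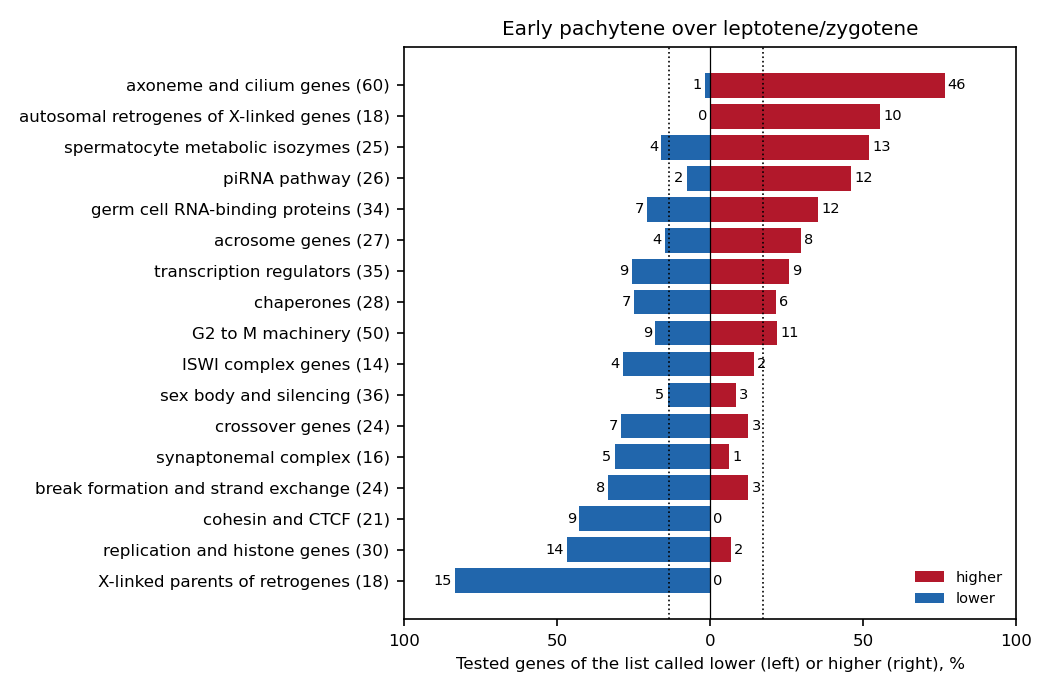
Percent of the tested genes of 17 lists called higher (right) or lower (left) in early pachytene than in leptotene/zygotene, with the number called beside each bar, the number tested in brackets, and dotted lines at 17.4% and 13.5%, the shares over all genes. Axoneme genes (46 of 60) and X-linked parents (15 of 18) lie at opposite ends.

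Of 25 metabolic genes with testis forms, 13 were higher and 4 lower (median 1.14), and 13 and 5 in the ribosomal-rich cells. Over all genes 17.4% were higher and 13.5% lower, and 23.5% and 19.2% in the ribosomal-rich cells. Ldhc went from 1067 and 651 CPM to 4914 and 3072 CPM (log2 2.58, SE 0.54, adjusted p = 5.4e-05), and was 5117 and 5781 CPM in the ribosomal-rich cells. The somatic form Ldha also rose, from 134 and 76.2 CPM to 604 and 294 CPM (log2 2.46, SE 0.42, adjusted p = 6.9e-07), as did Pgam2, a phosphoglycerate mutase, from 73.1 and 53.3 CPM to 373 and 245 CPM. Of 34 germ-cell RNA-binding protein genes, 12 were higher and 7 lower, and 17 and 9 in the ribosomal-rich cells, against the same shares over all genes. Ybx3, a Y-box protein of stored messages, went from 517 and 289 CPM to 2302 and 1272 CPM (log2 2.50, SE 0.46, adjusted p = 5.8e-06), and Pabpc2, a testis poly(A)-binding protein, from 99.8 and 54.3 CPM to 316 and 106 CPM (log2 1.71, SE 0.40, adjusted p = 0.00031). Elavl2, which binds AU-rich messages, was nearly lost, from 143 and 66.8 CPM to 2.11 and 2.47 CPM (log2 -5.08, SE 0.41, adjusted p = 2.2e-20). Of 28 chaperone genes 6 were higher and 7 lower, against 17.4% and 13.5% over all genes. In the ribosomal-rich cells the balance turned to 12 and 8 of 27, against 23.5% and 19.2%. Hspa2, the chaperone of the synaptonemal complex and the CDK1 kinase, was higher in both, at 1385 and 684 CPM after 540 and 358 CPM (adjusted p = 0.0021).

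Among 35 transcription regulators, 9 were higher and 9 lower, and 11 and 12 in the ribosomal-rich cells, against 17.4% and 13.5% over all genes (23.5% and 19.2% in the ribosomal-rich cells). Those higher included Rfx2, which drives cilium and spermatid genes, at 57.6 and 44.4 CPM and then 98.3 and 124 CPM (log2 1.47, SE 0.33, adjusted p = 0.00017). Rfx4 was at 70.3 and 53.3 CPM and then 120 and 227 CPM (log2 1.84, SE 0.34, adjusted p = 4.3e-06), and stood at 111 and 78.4 CPM in the ribosomal-rich cells and 373 and 367 CPM in those under 3% ribosomal protein UMIs. Tcfl5 was at 166 and 137 CPM and then 378 and 261 CPM (log2 1.41, SE 0.36, adjusted p = 0.0012). In these 3 genes too the early pachytene values were the higher in both samples, but the Rfx2 call did not hold with thinned cells (log2 1.02). Tbpl1, encoding the TBP-related factor TRF2 of spermatids, rose from 191 and 160 CPM to 404 and 236 CPM (log2 1.21, SE 0.40, adjusted p = 0.015) without passing when cells with any UMI of Ccna1, Pxt1, Aurka or Acrv1 were left out (log2 0.83), and on to 1136 and 1264 CPM in the Ccna1-high gate (log2 2.45, SE 0.41, adjusted p = 4.2e-07). Of 14 genes of the ISWI complexes that SMARCA5 drives, 2 were higher and 4 lower, and 4 and 4 in the ribosomal-rich cells, with the same shares over all genes. Baz1a, encoding the ACF1 partner, was at 186 and 130 CPM and then 626 and 500 CPM (log2 2.17, SE 0.36, adjusted p = 4.2e-07), or 632 and 324 CPM in the ribosomal-rich cells. Chrac1, a histone-fold subunit that joins ACF1, was at 204 and 237 CPM and then 587 and 401 CPM (log2 1.55, SE 0.42, adjusted p = 0.0019). Cecr2, the partner of SMARCA5 in the CERF complex, was lower, at 33.2 and 46.0 CPM after 138 and 98.2 CPM (log2 -1.21, SE 0.31, adjusted p = 0.0013), as were Baz1b, Rbbp7 and Smarca5 itself. The other 8 of 14 did not pass.

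Within the gate, cells were not all alike. The ribosomal-rich cells of each sample were ranked by the share of Ldhc and cut into 3 equal groups of 170 to 171 cells in replicate 1 and 90 to 91 in replicate 2, which is a description with no test. Dazl, a germ-cell translation factor that is high early, stood at 835, 252 and 154 CPM from the low to the high group in replicate 1 and 1025, 344 and 118 CPM in replicate 2. Sycp1 ran 2581, 1678 and 1100 CPM and 1878, 1406 and 705 CPM. Spink2, a protease inhibitor of the acrosome, ran the other way, 363, 827 and 1293 CPM and 190, 1007 and 1901 CPM. Tdrd1 and Piwil1 changed less, with Piwil1 at 684, 737 and 618 CPM and 518, 599 and 514 CPM. X-linked genes drew 0.270%, 0.0817% and 0.0787% of UMIs in replicate 1 and 0.680%, 0.134% and 0.0791% in replicate 2. The low group of replicate 2 also held 906 CPM of the Leydig gene Insl3 and 496 CPM of the Sertoli gene Cst9, against 116 and 66.4 CPM in replicate 1, and the part of those transcripts in its X-linked share was not tested.

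**Figure D5:**
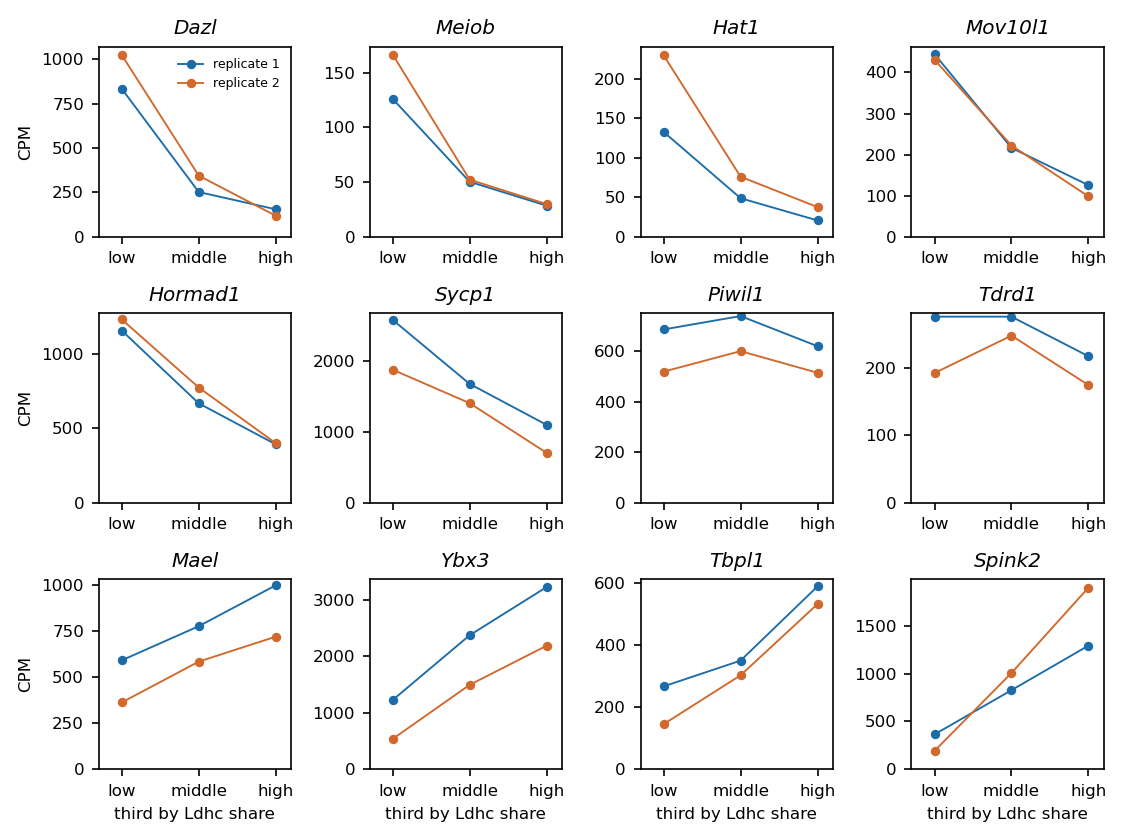
CPM (y axis, from 0) of 12 genes in the ribosomal-rich early pachytene cells split into 3 equal groups by their Ldhc share (x axis, low to high), with 1 line per cKO replicate. Dazl, Meiob, Hat1, Mov10l1, Hormad1 and Sycp1 descend in both replicates, Mael, Ybx3, Tbpl1 and Spink2 ascend, and Piwil1 and Tdrd1 are highest or level in the middle group.

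Compared with early pachytene, the Ccna1-high cells had 4164 genes (23.0%) higher and 3805 (21.0%) lower, and in the ribosomal-rich cells 4432 (27.4%) and 3479 (21.5%). Genes higher made up 52.3% of those called, and 42.0% (2400 genes) with cells thinned to 2000 UMIs, where the median log2 change over all genes was -0.21. Prss39, a sperm serine protease, was at 28.3 and 17.9 CPM in early pachytene and 274 and 375 CPM after it (log2 4.35, SE 0.41, adjusted p = 1e-16). Pou5f2, a POU-domain factor of spermatocytes, went from 23.4 and 22.1 CPM to 185 and 238 CPM (log2 3.74, SE 0.35, adjusted p = 5.7e-17). Ccnb1, encoding cyclin B1, was lower in early pachytene, 19.4 and 16.4 CPM, than before it, 63.2 and 46.0 CPM, and was 112 and 178 CPM afterwards (log2 3.53, SE 0.36, adjusted p = 8.3e-15). Of 50 genes of the G2 to M machinery, 11 were higher and 9 lower on entry to the gate, against 17.4% and 13.5% over all genes. In the ribosomal-rich cells it was 18 and 11 of 48, against 23.5% and 19.2%. On leaving it 18 were higher and 5 lower, against 23.0% and 21.0%, and 19 and 8 in the ribosomal-rich cells, against 27.4% and 21.5%. This step also brought Plk1, a division kinase, from 6.32 and 5.32 CPM to 57.2 and 78.4 CPM. The other genes that rose most were Cldn5, Bcas1, Neil3, Tlcd1, Pdzd9, Tmed6, Hspa1l, Tekt4 and Aqp11.

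The 12 genes that fell most on leaving the gate were all longer than 200 kb, against 5.87% of tested genes with a length in the RefSeq table. Hpse2, a heparanase-like protein gene, went from 277 and 513 CPM to 55.7 and 22.8 CPM (log2 -2.91, SE 0.36, adjusted p = 3.6e-11), and Ube2e2, a ubiquitin-conjugating enzyme gene, from 283 and 472 CPM to 51.7 and 25.8 CPM (log2 -2.81, SE 0.35, adjusted p = 5.1e-11). All 12, which also include Nbea, Dock3, Dennd1a, Rims2, Fbxl17, Pdss2, Btbd9, Gab2 and Otud7a, were above their ribosomal-rich level in the cells under 3% ribosomal protein UMIs in both samples: Hpse2 stood at 576 and 824 CPM there and 271 and 189 CPM in the ribosomal-rich cells. In the ribosomal-rich fit the 12 were still lower, by 1.61 to 2.69 on the log2 scale. Of all genes lower in the Ccna1-high gate, 9.27% exceeded 200 kb with all cells and 6.08% in the ribosomal-rich cells, when the share among all tested was 6.03%.

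The ATAC libraries show whether the starts of these genes lay in open chromatin in each genotype. A gene start counted as open if it lay within 500 bases of a peak. Of the 2289 genes higher in early pachytene that have a start, 85.6% ± 0.247 had a peak in the 4C wild-type libraries and 86.0% ± 0.525 in the 4C cKO libraries (SD, n = 2 each), a difference of 0.459 percentage points with an exact two-sided permutation p of 0.667. The smallest p this design allows is 0.333. With peaks kept only from a −log10 q of 5 upward, the difference was -3.74 points, the opposite sign, with an exact p of 0.333. In the cKIT+ libraries the shares were 79.0% ± 3.49 in wild type and 83.2% ± 0.927 in cKO. Over all 13287 genes tested the 4C shares were 78.8% and 80.2%, and over the genes lower in early pachytene 87.5% and 88.4%. Peak numbers were 55756 and 59417 in 4C wild type, 54059 and 57788 in 4C cKO, 44697 and 112518 in cKIT+ wild type and 127222 and 121802 in cKIT+ cKO, so the cKIT+ wild-type pair differed most.

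A peak at the start in all 4 4C libraries and no cKIT+ library marked 87 of the 2289 genes (3.80%) against 187 of 13287 (1.41%), and included Tmbim7 and Pgam2. The authors' fold enrichment at the Pgam2 start was 4.29 and 4.95 in 4C wild type and 3.05 and 3.40 in 4C cKO. At Piwil1 it was 6.36 and 5.71 in 4C wild type and 6.97 and 6.39 in 4C cKO, with peaks of 4.02 to 4.91 in the 4 cKIT+ libraries. Rfx4 had 4.51 and 4.16 in 4C wild type, 4.14 and 3.88 in 4C cKO, and a cKIT+ peak in 1 library only. These folds describe peaks within each list and were not compared between genotypes.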

How the data were processed

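The deposited single-cell matrices hold raw UMI counts, whole numbers for each barcode and gene. Their headers name Cell Ranger, version 7.1.0 for replicate 1 and version 9.0.1 for replicate 2. The ATAC files are broad peak lists that the authors called per library with MACS2 on mm10, per the submitters' processing notes, with a fold enrichment, −log10 p and q values and a score for each peak as deposited. A peak score was not used.

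Of 32285 genes, 26693 matched a chromosome in the RefSeq table. Replicate 1 listed 987771 barcodes with 63605819 UMIs and replicate 2 listed 17744 with 115830234, of which 8098 and 14262 passed the cell filters (median 3856.5 and 4581 UMIs). Raw counts were summed per sample and gate over 5 gates (spermatogonia, leptotene/zygotene, early pachytene, Ccna1-high, round spermatid) and fitted with edgeR 4.0.16 (TMM, filterByExpr, quasi-likelihood, sample as block) in R 4.3.3, with Benjamini-Hochberg adjustment over all 18127 genes tested. The block is used because the gates of a sample come from the same cell suspension. The 18 gate genes were left out. Tested on simulated data over 14470 genes, the fit recovered 38% of genes changed by 1 on the log2 scale and 90% of those changed by 2. The simulated counts had the same spread for every gene and no difference between samples, so recovery in the real data may be lower.

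Named genes were the 12 with the largest log2 change in each direction, at least 100 CPM in the higher gate and moving the same way in both samples, plus members of 31 gene lists. One gene that this rule names is not reported here. The members and lists were chosen with earlier results of these data known. The alternatives were DESeq2 1.42.0, DESeq2 size factors, no count filter, no block, doublets removed (Scrublet in scanpy 1.11.5), stricter gates, thinning and, added after seeing the data, the ribosomal protein split and a fit without spermatogonia. Intervals and p-values do not cover capture bias of 3′ counting.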

Additional observations from a re-analysis of the deposited data

Results flagged for a closer look

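The share of X-linked gene starts with a peak differed between genotypes in opposite directions in the 2 sorts. Of 511 X-linked genes, 81.8% and 80.8% had a peak in the 4C wild-type libraries and 75.9% and 77.1% in the 4C cKO libraries, while among cKIT+ libraries the wild-type pair had 64.4% and 74.8% and the cKO pair 78.3% and 78.1%. The difference of the differences was -13.41 percentage points, with an exact permutation p of 0.0556, the smallest that 36 arrangements allow. With equal numbers of peaks per library it was -7.24 points (exact p = 0.111), and the part of the unequal cKIT+ peak numbers was not tested further. In that setting the cKIT+ libraries of the genotypes overlapped. On the autosomes it was -3.19 points (exact p = 0.778), but -14.21 points (exact p = 0.111) with peaks kept from a −log10 q of 5 upward, against -26.52 on the X, and 3.68 points (exact p = 0.111) with equal numbers of peaks.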

How the results depend on the processing

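With cells thinned to 2000 UMIs, 1483 genes were higher and 1389 lower in early pachytene than in leptotene/zygotene and 2400 were higher in the Ccna1-high gate. Fewer genes passed the count filter there, 11669 against 18127. The other alternatives kept these counts within 1.5 times. The difference in 4C peak share at genes higher in early pachytene turned to -3.735 points with peaks kept from a −log10 q of 5 upward, and the cause was not tested. Of 1404 values for single genes under the alternatives, 45 lost a call, 18 gained one and 1 reversed: Tdrd6 from early pachytene to the Ccna1-high gate, at -0.90 on the log2 scale with thinned cells.

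The 2 samples give 2 pairs of gates, and without the replicate block 2504 genes were higher and 1854 lower in early pachytene, and 3425 and 2893 in the Ccna1-high gate. Paired within replicates, the X-linked share difference of -1.391 points had an exact p of 0.5, the smallest that 2 pairs allow. The 4C peak share difference of 0.459 points also had an exact p of 0.5 with libraries paired by replicate number. The labels do not say that wild-type and cKO libraries of the same number belong together. With 1 sample left there is no test. Of the genes called, 3072 to 3157 of 3161 higher and 2432 to 2444 of 2447 lower kept their direction in the remaining sample, and in the Ccna1-high gate 4070 to 4119 higher and 3784 to 3805 lower. Those genes were called from both samples together, so their shared direction is no separate check. The X-linked difference ran from -1.435 to -1.346 points and the 4C peak difference from 0.0874 to 0.830. The gap in depth between gates limits what low genes can show.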
